A study of Mus musculus with 4 samples.

Results

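Common fragile sites are chromosome regions that break when DNA replication is slowed, and many of them lie inside very large genes. The 7 genes described here are such genes or their mouse counterparts: Macrod2, Immp2l, Fhit, Wwox, Lrp1b, Dlg2 and Ctnna3. They were taken by name, with earlier results of these data known. A peak was counted when it overlapped the annotated gene body (GRCm38) by 1 bp or more. The bodies run from 913 kb (Wwox) to 2058 kb (Lrp1b) and sum to 11.1 Mb. They held 47 of the 7699 peaks of the melatonin library and 67 of the 8361 peaks of the untreated library.

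The series used ChIP-seq, the sequencing of DNA pulled down with an antibody, to map the histone mark H3K36me2 (2 methyl groups on lysine 36 of histone H3) in mesenchymal stem cells (MSCs) cultured from mouse bone marrow. The melatonin library came from cells given 1 µM melatonin, the pineal hormone, for 24 hours, and the untreated library from cells without it. Each had its own input library made without antibody, and the study asked how the mark is placed in MSCs given melatonin. The melatonin ChIP library held 14180076.5 tags and the untreated one 13198427.5, as the peak finder counted them. The labels of these samples give no strain, age, sex or number of animals, although the series text speaks of old donors and the title of senescent cells. A protocol field repeats the melatonin step for all 4 samples, and the treatment field tells them apart. Cell identity was not checked, since peak lists hold no expression values. With 1 ChIP library per condition there is no replicate check, and no p-value was computed between the libraries. Intervals cover counting error only.

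H3K36me2 is written by enzymes of the NSD family, among them NSD2, which the study's title names, and is commonly spread over broad stretches of chromatin inside and between genes. Fragile-site genes are known for small coding parts spread over very long introns, and for breaks and deletions in tumours and in cells under replication stress. Immp2l encodes a subunit of a peptidase of the mitochondrial inner membrane. Fhit, Wwox and Macrod2 encode enzymes: a hydrolase of dinucleoside polyphosphates, an oxidoreductase with WW domains, and a hydrolase that removes ADP-ribose from proteins. Ctnna3 and Dlg2 encode an alpha catenin of cell junctions and a synaptic scaffold of the membrane-associated guanylate kinase family. Lrp1b encodes a giant receptor of the low-density lipoprotein receptor family.

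Start sites are shown for genes where the peaks can be placed against them. RefSeq (GRCm38.p6) promoter windows, from 250 bases before to 50 after a listed start, matched 5 of the 7 genes: Macrod2, Immp2l, Fhit, Dlg2 and Ctnna3. Immp2l had the peak nearest to a listed start of its gene, and Fhit had all its peaks on 1 side of its second start, so these windows are printed 5′ to 3′, with each CG in capitals. The Immp2l window is chr12:41023840-41024139 on the plus strand, and the Fhit windows are chr14:11161986-11162285 and chr14:10453409-10453708 on the minus strand.
Immp2l: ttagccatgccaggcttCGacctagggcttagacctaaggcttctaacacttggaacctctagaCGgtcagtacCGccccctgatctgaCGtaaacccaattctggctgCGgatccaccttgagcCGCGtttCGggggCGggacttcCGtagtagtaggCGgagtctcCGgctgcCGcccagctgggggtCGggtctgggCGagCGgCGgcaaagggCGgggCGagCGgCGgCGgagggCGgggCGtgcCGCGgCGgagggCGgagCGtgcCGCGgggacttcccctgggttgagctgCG
Fhit first start: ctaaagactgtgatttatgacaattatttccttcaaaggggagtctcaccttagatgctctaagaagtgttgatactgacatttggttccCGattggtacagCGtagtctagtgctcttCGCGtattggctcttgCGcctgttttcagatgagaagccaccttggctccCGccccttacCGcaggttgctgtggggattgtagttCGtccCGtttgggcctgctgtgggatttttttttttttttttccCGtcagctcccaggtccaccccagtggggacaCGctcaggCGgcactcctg
Fhit second start: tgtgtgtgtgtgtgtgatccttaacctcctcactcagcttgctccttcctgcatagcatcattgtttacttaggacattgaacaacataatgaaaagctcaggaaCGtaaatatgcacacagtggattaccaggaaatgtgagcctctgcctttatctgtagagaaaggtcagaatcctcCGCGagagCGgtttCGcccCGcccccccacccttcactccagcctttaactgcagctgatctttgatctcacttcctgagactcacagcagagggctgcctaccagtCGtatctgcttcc
The Immp2l window holds 32 CG, a number reached by 9.52% of all 32851 promoter windows in the table. The first Fhit window holds 12 CG, reached by 39.6% of windows, and the second holds 7, reached by 52.1%. No peak of either library in the 7 genes touched any of the 22 RefSeq promoter windows that lie in them, those of nested genes included. Over the whole lists, 0.831% of melatonin and 0.55% of untreated peaks touched a promoter window. A count of 0 among 47 and 67 peaks is thus near the background.

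All members but Lrp1b held peaks in each library. That is 6 of 7 genes in the melatonin list, against 5.54% of all 21631 protein-coding genes, and 6 of 7 in the untreated list, against 5.27%. A longer body offers more room for peaks, so the members were set beside the 61 other protein-coding genes whose length lies between those of Wwox and Lrp1b. Of these, 37.7% had a melatonin peak, 36.1% an untreated peak and 26.2% both, against 2.67% of all protein-coding genes with both. On the chromosomes that hold a member, 5 of 16 such genes had a melatonin peak and 6 of 16 an untreated peak. These shares describe a list of genes chosen by name with earlier results of these data known, and are not a test.

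Density in the 7 genes together was 0.425 peaks per 100 kb with melatonin (95% Poisson interval 0.312 to 0.565) and 0.606 per 100 kb without (0.47 to 0.769). The 61 genes of similar length held 112 melatonin and 152 untreated peaks, which is 0.157 and 0.213 peaks per 100 kb. Their median density was 0 in each library, because 38 had no melatonin peak and 39 no untreated peak. Their upper quartile was 0.0944 peaks per 100 kb with melatonin and 0.165 without, and 6 of the 7 members lay above it in each library. The distribution had a long tail. Summed over both libraries, the densest of the 61 was Lrmda on chromosome 14, with 29 melatonin and 24 untreated peaks, followed by Pard3b, a cell polarity gene, with 16 and 31, and Pde4d, a cyclic AMP phosphodiesterase gene, with 15 and 17. Lrmda and Pard3b were denser in each library than every member, while Pde4d was less dense than Immp2l in each.

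**Figure D1:**
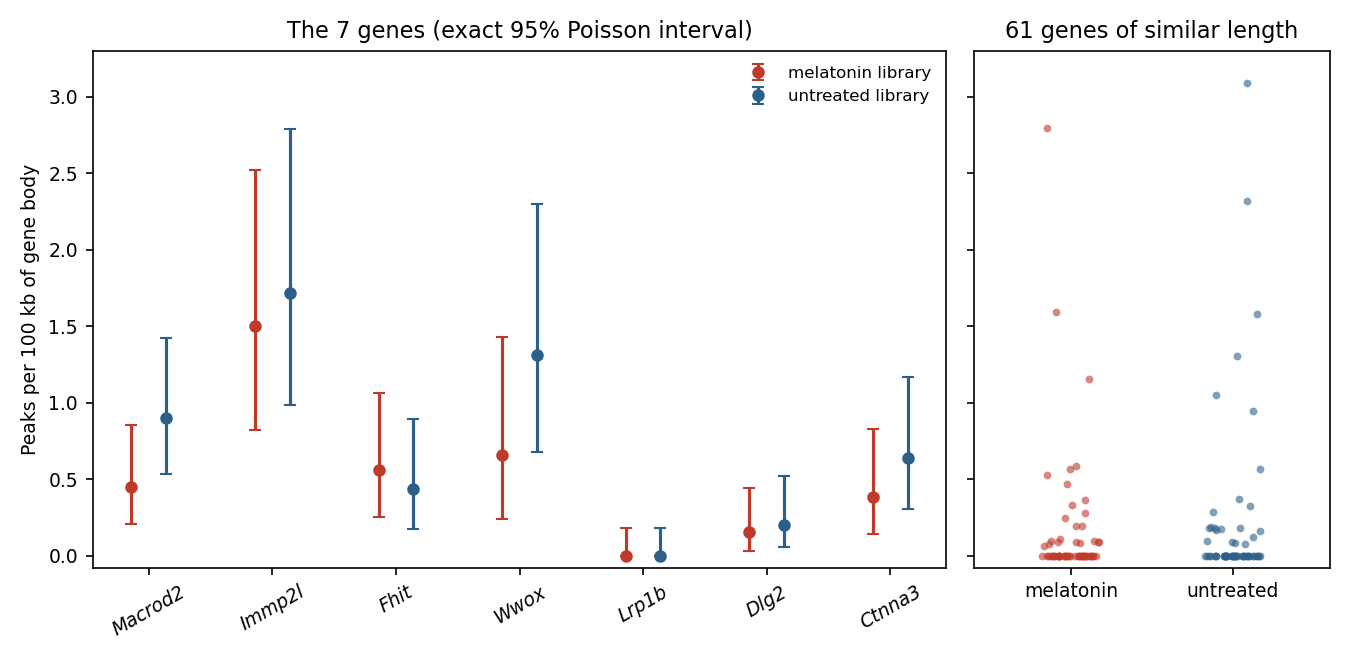
Left, peaks per 100 kb of gene body in each of the 7 genes for the melatonin (red) and untreated (blue) library, with exact 95% Poisson intervals; right, the same density in each of 61 protein-coding genes of similar length, as points spread sideways for sight. Immp2l is the densest member with 1.5 and 1.72 peaks per 100 kb, Lrp1b has 0 in each library, and most genes of similar length lie at 0.

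Immp2l, the mitochondrial peptidase gene (chromosome 12, 41024061 to 41955588), was the densest member. It had 14 melatonin peaks, or 1.5 per 100 kb (0.822 to 2.52), and 16 untreated peaks, or 1.72 per 100 kb (0.982 to 2.79). In each library 2 of the 61 genes of similar length were denser. Its peaks ran over the whole gene, from the untreated peak at 41025507 to 41026507, 1.42 kb inside the start whose window is printed above, to the melatonin peak at 41953643 to 41954643, 0.945 kb before the far end. In 4 equal parts from the start, it held 6, 3, 4 and 1 melatonin peaks and 4, 3, 4 and 5 untreated peaks. The highest folds over input were 16.5 with melatonin, at 41488391 to 41489391, and 21.2 without, at 41541231 to 41542231. Both rested on little input, at 1 tag and 0.8 tags, beside 16.5 ChIP tags in each. The largest gap between neighbouring midpoints was 238 kb with melatonin and 183 kb without.

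Wwox, the WW domain oxidoreductase gene (chromosome 8, 114439635 to 115352712), had 6 melatonin peaks, or 0.657 per 100 kb (0.241 to 1.43), and 12 untreated peaks, or 1.31 per 100 kb (0.679 to 2.3). It was the second densest member in each library, and 3 of the 61 genes of similar length were denser in each. From the lower-coordinate end, its 4 equal parts held 1, 3, 1 and 1 melatonin peaks and 0, 3, 3 and 6 untreated peaks. The first 179 kb at that end held none in either library. Its strongest melatonin peak, at 114839180 to 114840726, had a fold of 15.1 over 1.5 input tags, and its strongest untreated peak, at 115071389 to 115072389, a fold of 8.46 over 2 input tags.

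Fhit, the dinucleoside polyphosphate hydrolase gene (chromosome 14, 9550092 to 11162061, minus strand), had 9 melatonin peaks, or 0.558 per 100 kb (0.255 to 1.06), and 7 untreated peaks, or 0.434 per 100 kb (0.175 to 0.895). All lay far from the first start. The 919 kb next to that start, 57% of the gene, held no peak in either library, and neither did the 1 Mb beyond the start. The second listed start lies 709 kb into the gene, and the nearest peak was another 210 kb downstream of it with melatonin and 257 kb downstream without. Of 4 equal parts, the last held 7 of 9 melatonin peaks and 3 of 7 untreated peaks, and the part before it held the rest. The melatonin peak at 9550216 to 9551216 sat 0.124 kb from the gene's end, with a fold of 8.04. The strongest untreated peak by fold, at 10195542 to 10196542, had a fold of 8.46.

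Macrod2, the ADP-ribose hydrolase gene (chromosome 2, 140395303 to 142392966), had 9 melatonin peaks, or 0.451 per 100 kb (0.206 to 0.855), and 18 untreated peaks, or 0.901 per 100 kb (0.534 to 1.42). It had the most untreated peaks of the 7. The peaks crowded into a short stretch: the 250 kb from 140706959 held 5 melatonin and 9 untreated peaks, 51.9% of both libraries' peaks in 12.5% of the gene. That stretch was picked as the densest, so its share is a description. Within it the untreated peak at 140849541 to 140850894 held 33 ChIP tags over 6.2 input tags (fold 5.29, p = 4.82e-14 in the authors' list), the most ChIP tags of the 67 untreated peaks. Such crowding was not particular to Macrod2. Picked the same way, the densest 250 kb held 71.4% of the peaks of Dlg2 and 68.8% of those of Ctnna3. The share was 50% in Wwox, 43.3% in Immp2l and 37.5% in Fhit. A window of that size equals 12.7% of the length of Dlg2, 15.9% of Ctnna3, 27.4% of Wwox, 26.8% of Immp2l and 15.5% of Fhit. In 4 equal parts from its start, Macrod2 held 6, 1, 1 and 1 melatonin peaks and 10, 4, 3 and 1 untreated peaks. The peak nearest to a listed start was 217 kb away with melatonin and 99 kb away without.

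Ctnna3, the alpha catenin gene (chromosome 10, 63430098 to 65003667), had 6 melatonin peaks, or 0.381 per 100 kb (0.14 to 0.83), and 10 untreated peaks, or 0.636 per 100 kb (0.305 to 1.17). Many of them lay in a gene nested within it. Lrrtm3, a synaptic leucine-rich repeat protein gene (63928497 to 64090255), takes up 10.3% of Ctnna3 and held 3 of its 6 melatonin peaks and 6 of its 10 untreated peaks, or 1.85 and 3.71 per 100 kb. The other 1412 kb of Ctnna3 held 3 and 4 peaks, or 0.212 and 0.283 per 100 kb. Lrrtm3 is described because it held peaks. The protein-coding genes nested in Macrod2 (13.3 kb) and in Immp2l (34.4 kb), both shorter than Lrrtm3, held 0 in each library. The strongest melatonin peak of the gene, at 63988471 to 63989471 inside Lrrtm3, had a fold of 15.7 over 1 input tag. A peak in a shared stretch cannot be given to either gene. Between the far end of Lrrtm3 and the far end of Ctnna3 no melatonin peak was called, and untreated peaks lay at 64281691 to 64282691 and 64826649 to 64827649.

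Dlg2, the synaptic scaffold gene (chromosome 7, 90476188 to 92449246), had few peaks: 3 with melatonin, or 0.152 per 100 kb (0.0314 to 0.444), and 4 without, or 0.203 per 100 kb (0.0552 to 0.519). They gathered toward the upper-coordinate end of this gene on the plus strand. The lowest 1152 kb, 58.4% of the gene, held none in either library, and the last of 4 equal parts held all 3 melatonin peaks and 3 of 4 untreated peaks. The starts listed for Dlg2 lie 615, 1586 and 1759 kb above its lower end, the first inside the empty stretch and the others inside the part with peaks. The peak nearest to any of them was 36.1 kb away with melatonin and 86.4 kb away without. Chromosome 7 was poor in peaks, with 0.0572 per 100 kb outside Dlg2 with melatonin and 0.0537 without. Dlg2 was thus 2.66 times as dense as its chromosome with melatonin and 3.77 times without, on 3 and 4 peaks.

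Lrp1b, the lipoprotein receptor family gene (chromosome 2, 40595290 to 42653598), had 0 peaks in each library, which allows up to 0.179 per 100 kb by the upper Poisson limit. The 1 Mb on either side of it was also without a peak, and the nearest peaks lay 1184 kb away with melatonin and 1104 kb without. The rest of chromosome 2, which also carries Macrod2, held 0.418 and 0.463 per 100 kb. The mark could still be there below the thresholds of the peak finder.

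**Figure D2:**
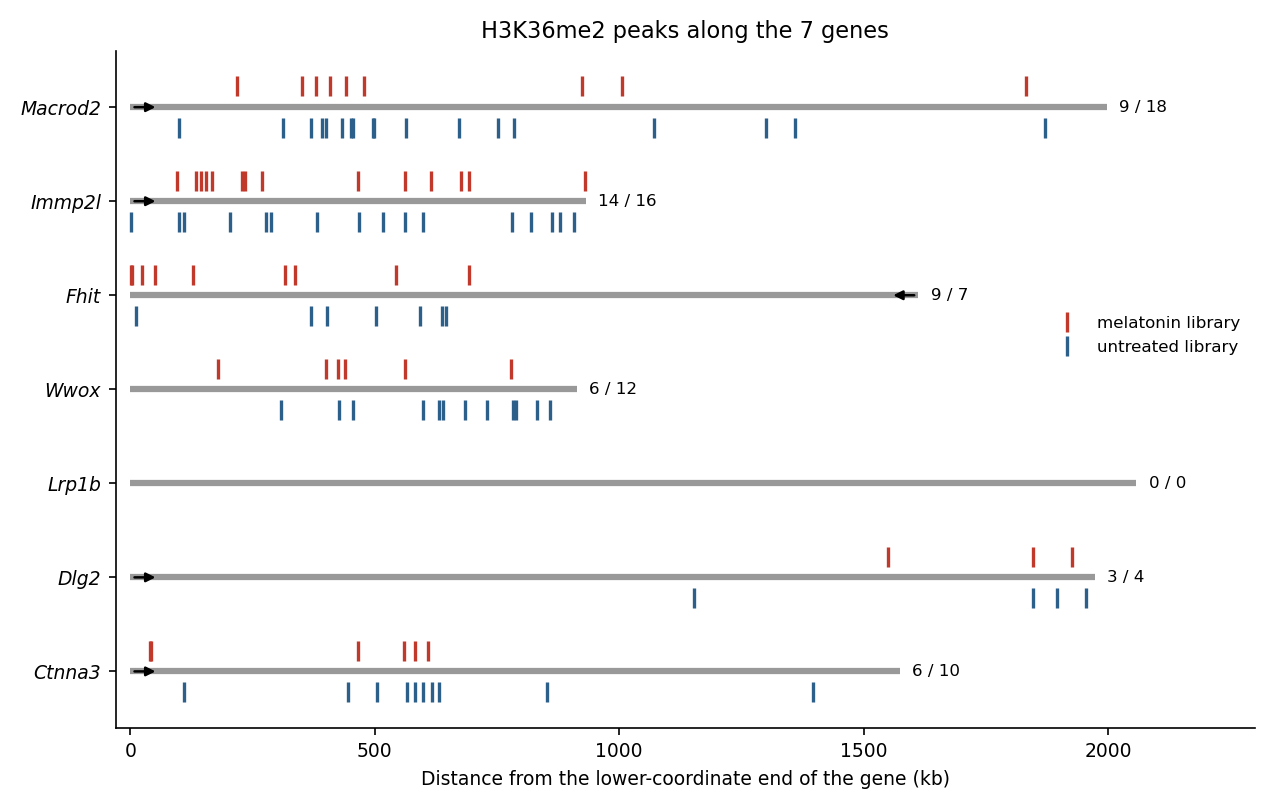
Midpoints of the peaks along each of the 7 genes, as distance in kb from the lower-coordinate end, with melatonin peaks as red ticks above the grey gene body and untreated peaks as blue ticks below it; arrows at the gene's end mark the direction of transcription where the promoter table gives the strand, not a listed start, and the numbers at the right are melatonin and untreated peaks. Peaks are scattered from end to end of Immp2l and are lacking in Lrp1b. The upper 919 kb of Fhit and the lower 1152 kb of Dlg2 are empty.

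Against their surroundings the members differed. Expected numbers were taken from the rest of each gene's own chromosome, which gave 37.6 melatonin and 39.8 untreated peaks over the 7 genes. The observed numbers were 1.25 times that with melatonin (0.918 to 1.66) and 1.68 times without (1.3 to 2.14). The genes were picked with earlier results of these data known, so the ratios in this paragraph are descriptions and not a test. Poisson limits also make no allowance for crowding such as that seen in Macrod2, Dlg2 and Ctnna3, and may be too narrow. With both lists cut to the 3849 peaks of lowest p, the untreated value was 1.44 (0.946 to 2.09), an interval that includes 1. The members then held 27 untreated peaks instead of 67, and the interval was wider. Immp2l decided the direction with melatonin: without it the ratio was 0.947 (0.652 to 1.33), and it was 1.38 (1.03 to 1.82) in the untreated library. Immp2l itself was 5.04 times as dense as the rest of its chromosome with melatonin and 5.51 times without. Wwox was 2.69 and 5.44 times as dense, Fhit 1.91 and 1.53 times, and Macrod2 1.09 and 1.99 times. Ctnna3 lay below its chromosome, at 0.605 and 0.949 times, on a chromosome rich in peaks. Of the 61 genes of similar length, 12 had a higher such ratio than Macrod2 with melatonin and 6 without, while 2 exceeded Immp2l in each library.

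In Wwox, Fhit and Ctnna3 an end of the gene that was poor in peaks bordered a flank without peaks or nearly so, but not in Dlg2. Wwox had 0 peaks in the 1 Mb below its peak-poor end in either library, and 9 with melatonin and 15 without in the 1 Mb above its other end. Fhit had 5 peaks in each library in the 1 Mb beyond its peak-bearing end and 0 in each beyond its start. Ctnna3 had 0 in each library above its upper end and 2 and 0 below its lower end. Dlg2 had 2 melatonin and 6 untreated peaks in the 1 Mb next to its empty lower part, and was less dense than its own flanks, which held 0.35 peaks per 100 kb with melatonin and 0.4 without. In Fhit and Wwox the peak-bearing stretch thus crossed 1 end of the gene and stopped short of the other.

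**Figure D3:**
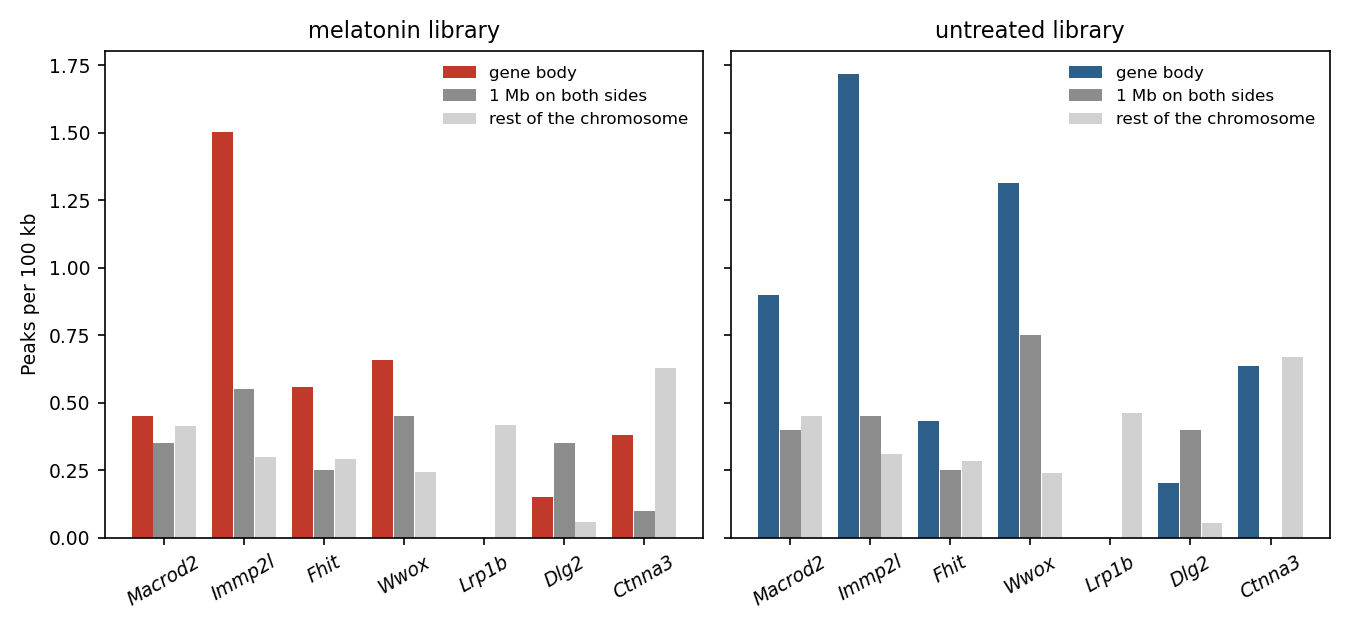
Peaks per 100 kb in the body of each of the 7 genes (coloured bars), in the 1 Mb on both sides (dark grey) and in the rest of its chromosome (light grey), for the melatonin library at the left and the untreated library at the right. The bodies of Immp2l, Wwox, Fhit and Macrod2 stand above both of their surroundings in each library, while Dlg2 stands below its flanks and Ctnna3 below its chromosome.

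Between the libraries, 5 of the 6 members with peaks had fewer melatonin than untreated peaks and 1, Fhit, had more. Among genes of similar length with a peak in either library, 55.2% of 29 had fewer melatonin peaks. Melatonin peaks numbered 0.701 times the untreated peaks in the 7 genes (exact binomial 95% interval 0.473 to 1.03), 0.737 over the 61 genes of similar length (0.572 to 0.947) and 0.921 over the whole lists. The interval for the members includes the values for the 61 similar genes and for the whole lists. The direction was not the same in every set. On the chromosomes that hold a member, the 16 genes of similar length held 0.2 peaks per 100 kb with melatonin and 0.165 without. Among these 16 was Lrmda, with 29 melatonin and 24 untreated peaks. By gene, the ratio was 0.5 at Macrod2 (0.198 to 1.17) and at Wwox (0.154 to 1.44), 0.6 at Ctnna3 (0.179 to 1.82) and 0.75 at Dlg2 (0.11 to 4.43). It was 0.875 at Immp2l (0.396 to 1.91) and 1.29 at Fhit (0.426 to 4.06). All 6 intervals include the ratio of the whole lists, so at no single member do these counts separate the libraries. The peak finder asked for 18 tags per window with melatonin and 17 without, and its part in the ratio was not tested.

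Peaks called in the libraries seldom overlapped in these genes, as was also the case over the whole lists. Of the 47 melatonin peaks 3 overlapped an untreated peak, or 6.38% (95% Wilson interval 2.2 to 17.2), as did 3 of the 67 untreated peaks, or 4.48% (1.53 to 12.4). The shares were 6.12% and 5.6% over the whole lists and 2.68% and 1.97% in the genes of similar length, all inside the intervals of the members. The Wwox pair overlapped by 352 bp, with the melatonin peak at 114864767 to 114865767 (fold 4.93) and the untreated peak at 114865415 to 114866415 (fold 4.1). The Dlg2 pair overlapped by 896 bp, with the melatonin peak at 92321753 to 92322753 (fold 4.78) and the untreated peak at 92321377 to 92322649 (fold 7.51). The Ctnna3 pair, inside Lrrtm3, overlapped by 534 bp, with the melatonin peak at 64012540 to 64013540 (fold 4.46) and the untreated peak at 64012074 to 64013074 (fold 7.9). Immp2l, the densest member, had no overlapping pair, and its closest peaks of the libraries were 0.33 kb apart. None of the 3 pairs was left among peaks with a fold of 6 or more.

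Measured as gaps, a melatonin peak in the 7 genes lay a median of 23.8 kb (95% order-statistic interval 12.5 to 37.5) from the nearest untreated peak on the chromosome, and an untreated peak 38.1 kb (19.9 to 49.9) from the nearest melatonin peak. The medians were 28.1 and 37.9 kb in the genes of similar length, and 24.5 and 25.6 kb over the whole lists, inside the intervals of the members. Within 10 kb lay 14 of the 47 melatonin peaks and 16 of the 67 untreated peaks, or 29.8% and 23.9%, against 30.8% and 29.2% of the whole lists. By gene, the median gap of melatonin peaks ran from 13 kb in Ctnna3 to 38.5 kb in Fhit. For untreated peaks it ran from 20 kb in Ctnna3 to 49.6 kb in Wwox. The widest gap was 787 kb, at the lone untreated peak near the end of Ctnna3.

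**Figure D4:**
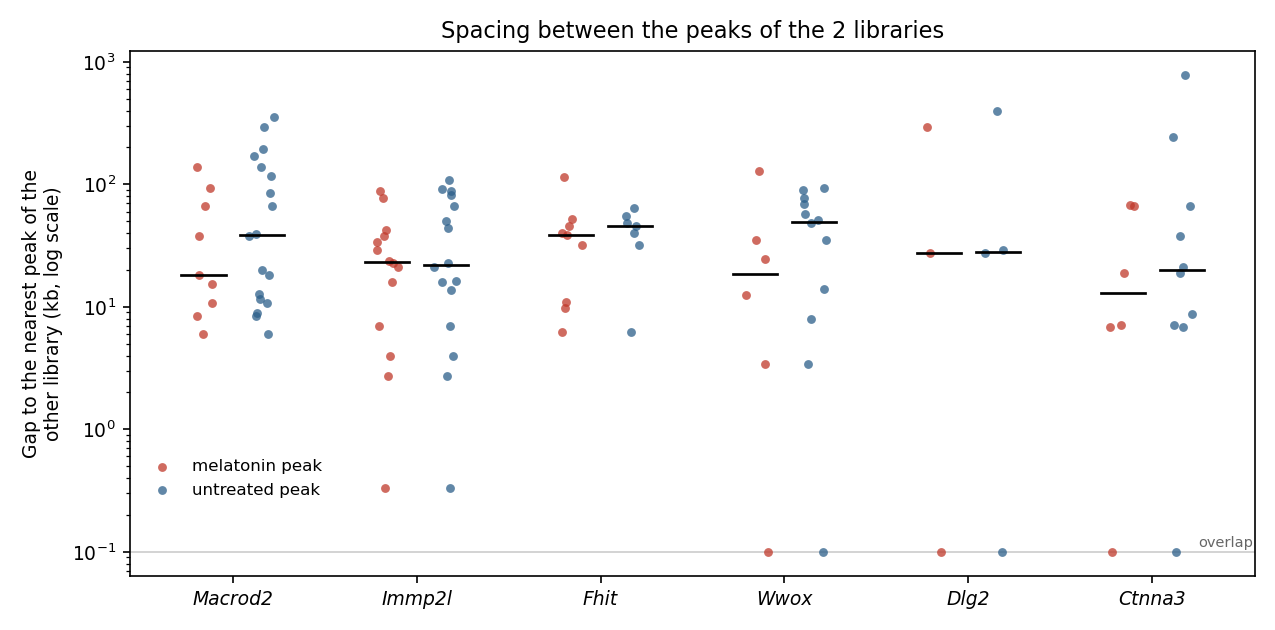
Gap in kb (log scale) from each peak in 6 of the 7 genes to the nearest peak of the other library, for melatonin peaks (red) and untreated peaks (blue), with black bars at the medians and overlapping peaks drawn on the grey line. Overlapping peaks appear in Wwox, Dlg2 and Ctnna3 only, and medians run from 13 to 49.6 kb.

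Single peaks in the 7 genes had values close to those of the lists as a whole. The median of the authors' fold was 5.22 (order-statistic interval 4.93 to 5.8) for the members' melatonin peaks and 4.98 (4.7 to 5.41) for their untreated peaks, against 5.11 and 4.87 over the whole lists. ChIP tags had a median of 16.1 and 17 per kb, against 16.1 and 17.5 over the whole lists. Input tags had a median of 3 and 3.5 per kb in the members and in the whole lists. Per the file headers, only 1.12% of melatonin and 1.24% of untreated tags lay in peaks. The smallest width of 1000 bp was found in 40 of 47 melatonin peaks and 59 of 67 untreated peaks, or 85.1% and 88.1%, against 79.2% and 79.6% over the whole lists. The widest regions in these genes measured 1546 bp with melatonin, in Wwox, and 1637 bp without, in Immp2l. No broad domain over a gene was called in either library, although the peak finder ran in its histone mode.

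Other large genes that lie at human common fragile sites were mixed. Reported here are 8: Nbea, Dmd, Cntnap2, Il1rapl1, Dab1, Rora, Magi2 and Dpyd. Of these, 4 had a melatonin peak and the same 4 an untreated peak. Among the genes similar in length to the members, 37.7% and 36.1% had one. That set itself includes Magi2, Il1rapl1 and Dab1, while the other listed genes fall outside its length band, from 559 kb (Nbea) to 2390 kb (Dmd). The median density of the 8 genes was 0.0223 peaks per 100 kb in each library, with a median length of 1250 kb. Magi2, a scaffold gene of the guanylate kinase family, had 7 melatonin and 14 untreated peaks, and Nbea, the neurobeachin gene of vesicle traffic, had 4 and 8. Rora, a nuclear receptor gene, had 3 and 2, and Cntnap2, a neurexin family gene, had 1 and 1. Dmd, the dystrophin gene, Il1rapl1, Dab1 and Dpyd had 0 in each library, as Lrp1b did. Dmd and Il1rapl1 lie on the X chromosome.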

How the data were processed

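The melatonin and untreated ChIP libraries were compared, each with 1 peak list. Per the file headers, the authors called peaks with HOMER findPeaks in histone style, separately for each library against its own input, in windows of 1000 bp and kept those at least 4-fold above input with a Poisson p of at most 1e-04. Tools named in the submitters' processing notes are BWA 0.7.13, MACS2 2.1.0 and Picard 1.126, with the HOMER version not given in the sources used here. As for units, the authors' deposited normalized, ChIP and input tag columns are signal (tags per 10000000, or tags with the deeper library of a pair scaled down). The deposited score was not used. The deposited fold is the authors' ratio of ChIP to input tags and the deposited p-value is not adjusted; the clonal ratio was not used.

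The notes name mm39, but peaks reach 159805034 on chromosome 3 and 145328623 on chromosome 7, further than these run in mm39. Midpoints of peaks fell in protein-coding genes of the RefSeq GRCm38.p6 table least often at a shift of 0 kb (29.1% of melatonin and 27.8% of untreated peaks), among shifts of up to 1000 kb either way, so coordinates were read as GRCm38. No genome sequence was used here, so repeats and gaps were not considered.

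Peaks were counted per gene body on chromosomes 1 to 19 and X with Python 3.11.15, pandas 2.3.3 and scipy 1.17.1. The rest of a chromosome spans its first to last annotated gene or peak. Genes of similar length are protein-coding genes from the shortest to the longest member. Intervals are exact Poisson (counts), exact binomial (ratios), Wilson (shares) and order-statistic (medians), all at 95%, and cover counting error only, since tags without molecular identifiers need not be separate molecules. No interval allows for the crowding of peaks within a gene. Counting was tested on simulated peaks with known answers. Named are the 7 members, nested genes with a peak, the 3 densest genes of similar length, and members of 3 gene lists with a peak, and listed genes without one are named only to give the list; some listed genes are not reported here. The members and lists were chosen with earlier results of these data known. Alternatives were other thresholds, an equal number of peaks per list, 2 kb flanks, midpoints, other overlap rules and other length bands; leaving out Immp2l or Macrod2 was chosen after seeing the data.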

Additional observations from a re-analysis of the deposited data

How the results depend on the processing

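The thresholds of the peak lists set the numbers most. With a fold of 6 or more, the 7 genes held 14 melatonin and 18 untreated peaks, or 0.127 and 0.163 per 100 kb, and 0% of either overlapped the other library. Median gaps to the other library were then 85.2 and 137 kb. With an equal number of 3849 peaks of lowest p per list, they held 23 and 27 peaks, or 0.208 and 0.244 per 100 kb, and again 0% overlapped. The density over the rest of the chromosome in the untreated library was then 1.44 (0.946 to 2.09). Both settings keep fewer peaks by construction. The ratio of melatonin to untreated peaks ran from 0.647 without Immp2l to 0.852 with equal lists, and only at a p of 1e-05 or less did its interval (0.45 to 0.995) leave out 1. Counts with 2 kb flanks or midpoints were 47 and 67, and the median of genes of similar length stayed 0 in every alternative run. No paired analysis was possible because each condition had 1 ChIP library. With 0 to 18 peaks per gene and library, the depth of the lists limits what can be said of a single gene.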

Other observations

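Of 10 close relatives of the members, namely Macrod1, Immp1l, Hint1, Dlg1, Dlg3, Dlg4, Ctnna1, Ctnna2, Lrp1 and Lrp2, 2 had a melatonin peak and 1 an untreated peak, where 5.54% and 5.27% of all protein-coding genes had one, and the median density was 0 in each library. Lrp2, the megalin receptor gene of 162 kb, had 3 melatonin and 2 untreated peaks with best folds of 14.8 and 7.05, whereas the member Lrp1b of the same receptor family had 0 and 0 in 2058 kb. Macrod1, which encodes a second ADP-ribose hydrolase, had 1 melatonin peak (fold 4.72) and 0 untreated peaks. Ctnna2, an alpha catenin gene of 1098 kb, had 0 in each library. The relatives had a median length of 109 kb, and the shares of all protein-coding genes take no account of length.

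Genes of the replication stress response that guard fragile sites had no peak in either library: 0 of 9 reported here, namely Atr, Chek1, Fancd2, Fanci, Mus81, Eme1, Blm, Rpa1 and Clspn. Among all protein-coding genes 5.54% had a melatonin peak and 5.27% an untreated peak, so a count of 0 among 9 is near the background. Among other genes nested in the members, the pseudogene Gm4274 in Immp2l held 1 melatonin and 2 untreated peaks. The noncoding gene Gm46348 at the end of Immp2l and the pseudogene Mnd1-ps in Fhit each held 1 melatonin and 0 untreated peaks.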
